A study of Mus musculus with 30 samples.

Results

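The nuclear-encoded subunits of the mitochondrial respiratory chain and of ATP synthase were described here in mHypoA-2/12 cells, an immortalized line derived from the hypothalamus of adult mice. Members were the protein-coding genes whose symbol starts with Nduf followed by a, b, c, s or v and a digit (complex I), is Sdha to Sdhd (complex II), starts with Uqcr (complex III), is a Cox4 to Cox8 subunit name with no further letters (complex IV), or starts with Atp5 (complex V); symbols marked as pseudogenes were left out. The rule used no measured value and found 82 of the 56941 genes in the count files: 37 of complex I, 4 of complex II, 8 of complex III, 15 of complex IV and 18 of complex V. Another 12 rows matched the symbols but were pseudogenes or a non-coding transcript.

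The respiratory chain is a row of protein complexes in the inner mitochondrial membrane that passes electrons from NADH and succinate to oxygen and pumps protons on the way, and ATP synthase uses the proton gradient to make ATP. Complex I takes electrons from NADH, complex II from succinate, complex III passes them from ubiquinone to cytochrome c, complex IV hands them to oxygen, and complex V is ATP synthase. Most subunits are encoded in the nucleus, made in the cytosol and imported, whereas a small core set is encoded in mitochondrial DNA, and neurons depend on this machinery for most of their ATP.

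The series holds 30 libraries of 3′ mRNA-Seq, a protocol that makes 1 fragment per transcript at its 3′ end. Cells received CBD (cannabidiol, a compound of Cannabis sativa) at 0.325, 0.75, 1.5 or 3 µM, or vehicle, for 6 h or 24 h, with 3 libraries in each of the 10 groups. CBD was dissolved in DMSO, so that treated and vehicle cells alike were in medium with 0.1% DMSO. All libraries came from 1 cell line, and the labels do not say whether the 3 libraries of a group were separate cultures, so that p-values measure the spread between libraries, which may be technical.

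Reads on genes ranged from 1839621 to 4420675 per library, of which the members took 1.59% to 2.08%. Levels are CPM, the count per 1000000 reads on genes after TMM scaling over the 30 libraries. Since each transcript gives 1 fragment whatever its length, CPM was compared between genes without division by length. The neuronal markers Tubb3 (49.0 CPM on average), Eno2 (37.2), Map2 (23.3) and Stmn2 (15.3) were detected, whereas the synaptic genes Snap25 and Syp and the hypothalamic peptide genes Npy, Agrp and Pomc were all below 1 CPM. Genes of mesenchymal cells were far higher, with Vim at 2196 CPM and Col1a1 at 2052 CPM, so that the markers show a line with few transcripts of mature neurons. The share of uniquely aligned reads that lay outside annotated genes ran from 17.7% to 22.2% and differed between groups at 24 h, and it is given beside the results it moved with.

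Reads were found for 78 of the 82 members, and 67 of them had a mean of at least 10 CPM over the 30 libraries. Cox7b2, Cox8b, Cox8c and a second annotated copy of Atp5o had 0 of 84273080 reads, a count that allows a level of up to 0.0356 CPM (3 reads, counting error only). The median level was 164 CPM over the 78 genes. It was 155 CPM in complex I, 82.6 in complex II, 202 in complex III, 180 in complex IV and 260 in complex V. Within each complex the levels spread far wider than between complexes, although the subunits of a complex are assembled in fixed ratios.

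**Figure D1:**
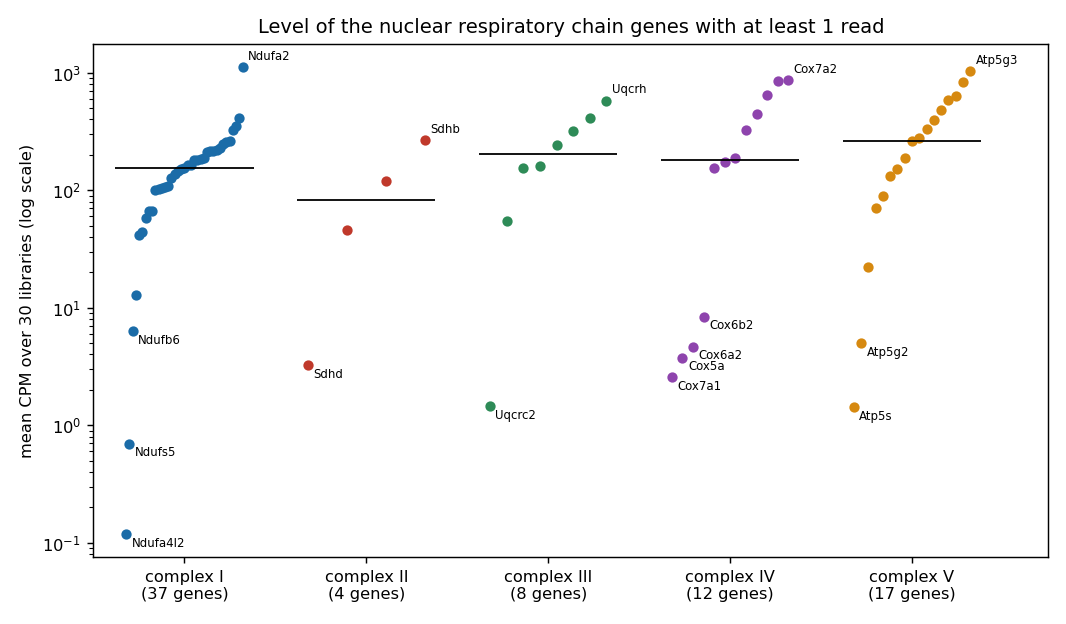
Mean level in CPM (log scale) over the 30 libraries of each member with at least 1 read, by complex; each point is 1 gene and the line is the median of the complex. Complex I runs from Ndufa4l2 at 0.119 CPM to Ndufa2 at 1110 CPM, and every complex has at least 1 gene below 10 CPM.

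The plot of levels by complex shows a tail of low genes in each complex. The highest were Ndufa2, an accessory subunit of complex I, at 1110 CPM, the ATP synthase c-subunit gene Atp5g3 at 1031 CPM and Cox7a2, a small subunit of complex IV, at 870 CPM. Uqcrh, the hinge protein of complex III, led its complex at 577 CPM and Sdhb, the iron-sulfur subunit of complex II, led at 266 CPM.

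Where a subunit has alternative genes, the common form was far above the tissue form. Cox6a1 was at 639 CPM and its heart and muscle form Cox6a2 at 4.67 CPM. Cox6b1 was at 326 CPM and the testis form Cox6b2 at 8.37 CPM. Cox7a2 was at 870 CPM and the heart and muscle form Cox7a1 at 2.56 CPM. Cox8a was at 446 CPM, whereas its relatives Cox8b and Cox8c had no read. Ndufa4, now known as a complex IV subunit although its name places it in complex I, was at 99.4 CPM, and its hypoxia-inducible relative Ndufa4l2 had 14 reads in 5 libraries. Of the 3 genes that encode the same mature c subunit of ATP synthase, Atp5g3 was at 1031 CPM, Atp5g1 at 88.8 and Atp5g2 at 4.97.

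Several subunits that every chain needs were also low. Uqcrc2, a core protein of complex III, was at 1.46 CPM, and its partner Uqcrc1 was at 161. Sdhd, a membrane anchor of complex II, was at 3.26 CPM, and Cox5a was at 3.75 CPM beside 187 for Cox5b. Ndufs5 was at 0.695 CPM and Ndufb6 at 6.33. Ndufs3, a core subunit of complex I, was at 12.9 CPM. Of further core subunits, Ndufs1 was at 41.6 and Ndufv1 at 214 CPM in complex I, Sdha 119 in complex II, Uqcrfs1 54.8 in complex III, and Atp5a1 479 and Atp5b 398 in complex V.

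Reads that align to more than 1 place stand in a line of their own in the count files and are in no gene's count, so a transcript end that has a copy elsewhere loses reads. Of the last 300 bases of its transcripts, Atp5g2 shared 98.9% of the 100-base stretches with 2 pseudogenes, and Atp5l shared 54.7% with 5. Cox7c shared 55.7%, Ndufs5 43.3% and Ndufs3 41.3%, and 9 other members shared between 5.22% and 25.9%. Uqcrc2, Sdhd, Cox5a and Ndufb6 shared none. The 3′ ends of Uqcrc2, Cox5a and Ndufb6 overlap a gene on the other strand (Pdzd9, Gm26631 and Smim27), and whether the counting used strand is not given in the sources used here. The part of shared or overlapping ends in the low values was not tested.

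Promoter sequence is shown because these genes are known targets of a few nuclear factors: NRF1, GABP and YY1 bind upstream of many respiratory genes. RefSeq promoter windows, from 250 bases before to 50 after the start in mouse build GRCm38.p6, matched 65 of the members by symbol. The letters searched, on either strand, are those in capitals in the lines below. The NRF1 core was found in 5 member promoters (7.69%) and in 1.07% of all 27025 genes with a window. The GABP core was found in 5 (7.69%, beside 4.31% of all genes) and the YY1 core in 5 (7.69%, beside 0.995%). At least 1 core was present in 15 member promoters, or 23.1%, beside 6.15% of all genes, with 6 in complex I, 3 in complex III, 2 in complex IV, 4 in complex V and 0 of 3 matched in complex II. The 8 members whose match lies wholly before the start are printed, with the core in capitals (for Atp5h and Uqcrh its reverse complement), 10 bases on either side where the window before the start allows, and each read 5′ to 3′ on the strand of its gene:
Atp5k (NRF1, chr5:108434430-108434459): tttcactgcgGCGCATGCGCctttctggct
Atp5g2 (NRF1, chr15:102671070-102671099): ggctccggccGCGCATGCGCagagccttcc
Cox6a1 (NRF1, chr5:115349101-115349130): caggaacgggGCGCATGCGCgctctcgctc
Ndufa11 (NRF1, chr17:56717692-56717721): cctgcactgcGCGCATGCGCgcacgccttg
Uqcr11 (GABP, chr10:80406870-80406897): tctctcctccCCGGAAGTagatgtcaat
Atp5h (GABP, chr11:115419941-115419968): caaggagagaACTTCCGGcaactctctt
Uqcrh (GABP, chr4:116075071-116075091): agtatgccgcACTTCCGGcca
Atp5j (YY1, chr16:84835045-84835074): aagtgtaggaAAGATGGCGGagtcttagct
Ndufa11 lies on the forward strand and the other 7 on the reverse strand. The cores end between 3 and 152 bases before the start. In a further 7 members (Ndufa9, Ndufs4, Ndufs6 and Ndufs7 with YY1, Uqcrc1 with NRF1, Cox8a and Ndufs3 with GABP) a core lies across or just after the start. A match is a description of the letters and no sign that the factor was bound in these cells.

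At 6 h the question was whether CBD at any dose shifted the chain from vehicle. No member but Uqcrc1 was called at any dose. Uqcrc1 is a core protein of complex III (chr9:108936633-108949623, forward strand, GRCm38), and in bulk libraries such as these fewer cells with a transcript and less transcript per cell cannot be told apart. Its levels in the vehicle libraries were 127, 127 and 103 CPM. At 0.325 µM they were 221, 239 and 204 CPM. At 0.75 µM they were 176, 138 and 198, at 1.5 µM 175, 135 and 129, and at 3 µM 152, 142 and 181 CPM. Every one of the 12 CBD libraries lay above every vehicle library, and the lowest dose was highest, its libraries overlapping those of no other dose.

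The edgeR quasi-likelihood test with Benjamini-Hochberg adjustment over all genes called Uqcrc1 at 0.325 µM, with a log2 fold change of 0.89 (SE 0.16, adjusted p = 0.033). It was the only member called of 73 tested, in a comparison that called 0.2% of all genes at an adjusted p below 0.1. At 0.75, 1.5 and 3 µM no member was called, in comparisons that called 0.0749%, 0.0999% and 0.05% of all genes. At an unadjusted p below 0.05 there were 7, 2, 7 and 1 members from the lowest to the highest dose, and DESeq2 called 0 at the 3 higher doses. Counts at an unadjusted p below 0.05 or by DESeq2, here and below, stand without the matching share of all genes. They are therefore no result about the members. For Uqcrc1 the log2 fold changes at the higher doses were 0.50, 0.29 and 0.41, with adjusted p of 0.38, 0.69 and 0.58 in the edgeR fit. These comparisons share the same vehicle libraries.

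For the mean of the 4 doses against vehicle at 6 h, Uqcrc1 was again the 1 member called (log2 fold change 0.52, SE 0.13, edgeR adjusted p = 0.083), beside 0.749% of all genes. All CBD libraries above all vehicle libraries was seen for 0.808% of genes. The call was close to the threshold: it was lost when any of 9 of the 15 libraries was left out, with an adjusted p of up to 0.18. The call at 0.325 µM was lost without replicate 2 of that dose (edgeR adjusted p = 0.10), and in the fit of the 2 groups alone (0.25), and without any other library it stayed. For the mean of the 3 lower doses against vehicle Uqcrc1 was likewise the 1 member called (log2 fold change 0.56, edgeR adjusted p = 0.077), beside 0.783% of all genes, and the call was lost when any of 8 of the 15 libraries was left out (adjusted p up to 0.16).

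**Figure D2:**
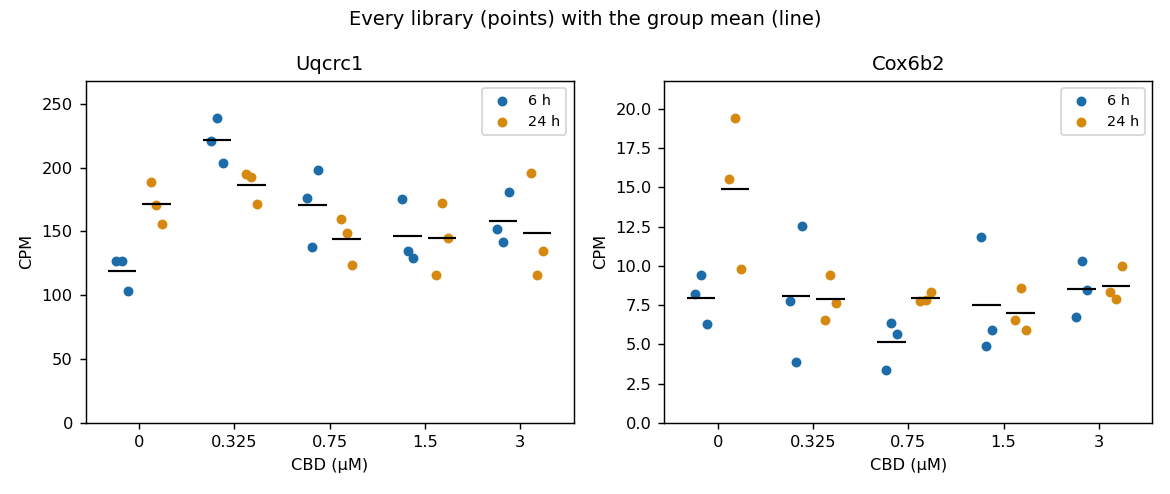
Level in CPM of Uqcrc1 (left) and Cox6b2 (right) in every library (points) with the group mean (line), by CBD dose in µM, at 6 h and 24 h; 0 is vehicle. At 6 h the 12 CBD libraries of Uqcrc1 lie above the 3 vehicle libraries, and at 24 h the 12 CBD libraries of Cox6b2 lie between 5.89 and 9.97 CPM.

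The plot of Uqcrc1 and Cox6b2 by dose shows that the vehicle group itself differed between the times. Uqcrc1 was higher at 24 h by 0.49 on the log2 scale (edgeR adjusted p = 0.035). That call was lost without vehicle replicate 3 of 6 h (log2 difference 0.40) or replicate 1 of 24 h (log2 difference 0.44), with an edgeR adjusted p of up to 0.14. At 24 h the Uqcrc1 levels in vehicle were 189, 171 and 156 CPM, and those at 0.325 µM were 195, 193 and 172 CPM. The libraries of every dose overlapped those of vehicle at that time, and the difference from vehicle for the mean of the 4 doses was -0.13 on the log2 scale (SE 0.12, edgeR adjusted p = 0.92). The interaction of time and CBD, the change from vehicle at 24 h minus that at 6 h, was -0.65 for Uqcrc1 (SE 0.19, edgeR adjusted p = 0.25), so that a difference in response between 6 h and 24 h was not called.

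By complex, the median log2 fold change of the mean of 4 doses against vehicle at 6 h was 0.08 in complex I, -0.08 in II, 0.04 in III, 0.10 in IV and 0.06 in V, beside -0.02 over all genes tested. The members with the smallest p in complexes II, IV and V were Sdhd at -1.12, Cox7b at 0.32 and the ATP synthase stalk subunit Atp5o at 0.27, with edgeR adjusted p of 0.36 to 0.53. Without vehicle replicate 3 Cox7b was at 0.63 (edgeR adjusted p = 0.056), and without replicate 3 of 0.325 µM Sdhd was at -1.96 (0.077). Of the 73 members, 45 were higher and 28 lower, and 5 had an unadjusted p below 0.05, with no share of all genes set beside these counts. No member was called among the 4 doses or between 3 µM and the 3 lower doses at 6 h (4 and 6 at unadjusted p below 0.05 in edgeR, 0 called by DESeq2), where 0.0% of all genes were called as well. Atp5k, the e subunit of ATP synthase, was the 1 member with every 3 µM library (588 to 615 CPM) below every lower-dose library (662 to 968 CPM), a pattern seen in 0.741% of genes.

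**Figure D3:**
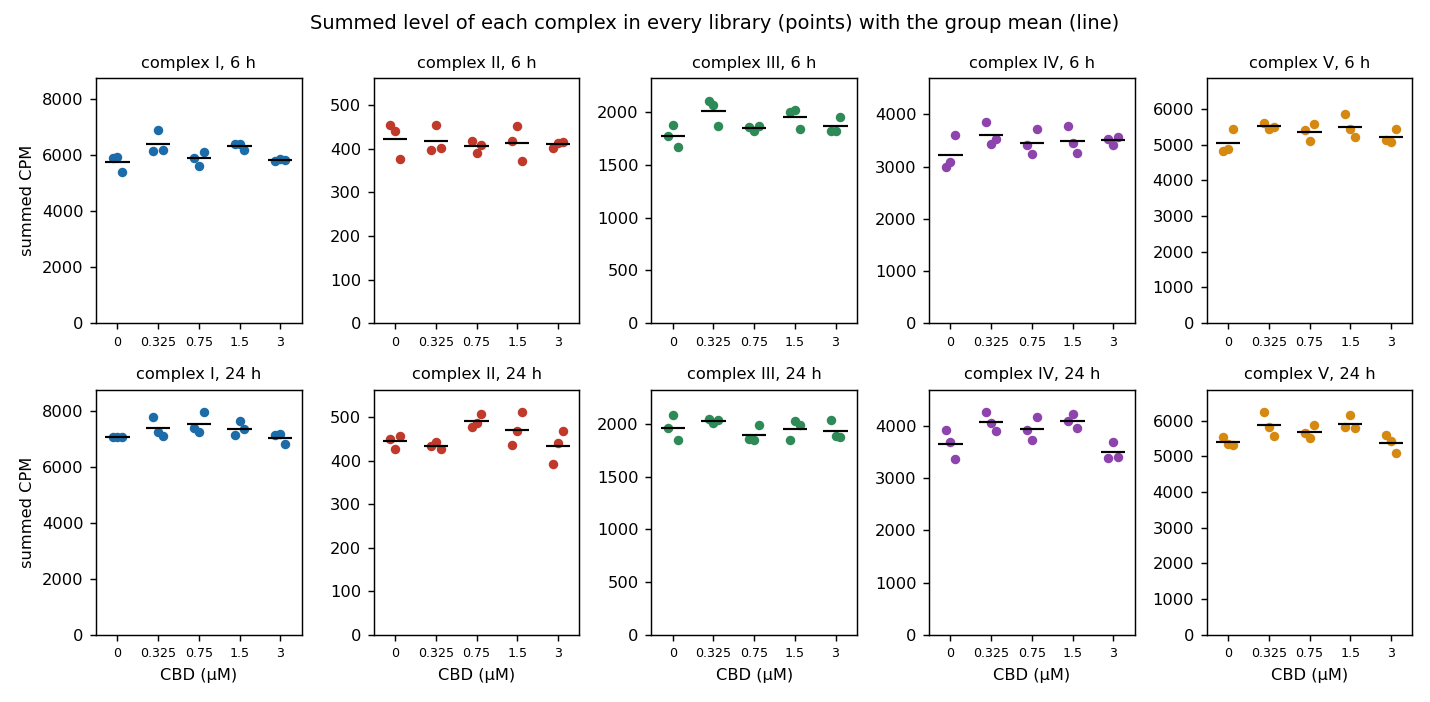
Summed level in CPM of all members of each complex in every library (points) with the group mean (line), by CBD dose in µM, at 6 h (top) and 24 h (bottom); 0 is vehicle and every axis starts at 0. In complex IV at 24 h the 3 libraries of 3 µM lie below the 9 of the lower doses. Genes with high levels weigh most in a sum.

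The plot of summed levels adds up the members of each complex, which are not the whole complex. Cox4i1 of complex IV (861 CPM on average), Cyc1 of complex III (158 CPM) and the mitochondrially encoded subunits lie outside the rule. Ndufa4 is summed in complex I. At 6 h the complex I sum was 5386 to 5910 CPM in vehicle, 5610 to 6877 in the 9 libraries of the 3 lower doses and 5790 to 5848 at 3 µM. The complex IV sum was 2995 to 3601 CPM in vehicle, 3248 to 3864 in the lower doses and 3422 to 3561 at 3 µM. The vehicle, lower-dose and 3 µM libraries overlapped in both complexes, as they did in complexes II, III and V.

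At 24 h no member was called at any single dose against vehicle, of 74 tested. All genes were called in 0.066%, 0.0825%, 0.0413% and 0.00825% of cases from 0.325 to 3 µM. At an unadjusted p below 0.05 the edgeR test gave 8, 11, 9 and 8 members, and DESeq2 called 0. For the mean of the 4 doses the count was again 0, beside 0.107% of all genes (6 members at unadjusted p below 0.05, 0 by DESeq2). The medians by complex were 0.02 in complex I, 0.06 in II, -0.01 in III, 0.07 in IV and 0.08 in V on the log2 scale.

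Cox6b2, the testis form of a complex IV subunit, had the smallest p among the members for the mean of the 4 doses. Its vehicle libraries were at 15.5, 19.4 and 9.80 CPM at 24 h, and at 8.18, 9.40 and 6.28 CPM at 6 h. The 12 CBD libraries of 24 h ran from 5.89 to 9.97 CPM, so that they overlapped the lowest vehicle library. The log2 fold change was -0.91 (SE 0.23, edgeR adjusted p = 0.19), which did not pass. In the other complexes the smallest p values belonged to Ndufb3, an accessory subunit of complex I, at 0.49, Sdhd at -0.89, Uqcrb at 0.15 and Atp5l, the g subunit of ATP synthase, at -0.40, with edgeR adjusted p from 0.60 to 0.89. With no filter on low counts Ndufb3 was called (0.49, edgeR adjusted p = 0.075).

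Among the doses at 24 h, 3 µM stood apart from the 3 lower doses. The edgeR test of 3 µM against their mean called 15 members, 14 lower and 1 higher, whereas over all genes tested 10.5% were called, 4.16% lower and 6.36% higher. Of the 14 lower members, 5 belong to complex I, 1 to II, 1 to III, 3 to IV and 4 to V. The median over all 74 members was -0.03, beside 0.01 over all genes, and the complex medians were -0.02, -0.16, -0.03, -0.0017 and -0.10 from complex I to V. The test of any difference among the 4 doses called 0 members (20 at unadjusted p below 0.05, 9 called by DESeq2), beside 1.93% of all genes.

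Cox8a, a small subunit of complex IV that spans the membrane (chr19:7215153-7217616, reverse strand, GRCm38), was at 365, 444 and 321 CPM at 3 µM. The 9 libraries of the lower doses ran from 452 through a median of 542 to 606 CPM. All 3 libraries of 3 µM thus lay below all 9 of the lower doses, and the log2 difference was -0.46 (SE 0.12, edgeR adjusted p = 0.023). The vehicle libraries, at 533, 405 and 362 CPM, overlapped both sets.

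Ndufa8, an accessory subunit of complex I on the side of the intermembrane space (chr2:36036326-36049406, reverse strand), had the largest fall of the called members of its complex. It was at 104, 133 and 95.4 CPM at 3 µM and from 136 to 200 CPM in the lower doses, with vehicle at 202, 141 and 122. The log2 difference between 3 µM and the lower doses was -0.56 (SE 0.14, edgeR adjusted p = 0.021). The complex I accessory subunits Ndufb5, Ndufa7 and Ndufa6 were also lower, with log2 differences of -0.43, -0.41 and -0.38, as was Ndufb3 with -0.55, at edgeR adjusted p of 0.029, 0.030, 0.053 and 0.079. For Ndufb5 (136 to 181 CPM at 3 µM, 196 to 255 in the lower doses) and Ndufa7 (168 to 221 and 227 to 303) the sets did not overlap, whereas for Ndufa6 (183 to 236 and 232 to 334) they did.

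Ndufa12, an accessory subunit of the matrix arm of complex I, was the 1 member called higher. It was at 313, 272 and 330 CPM at 3 µM, from 189 to 277 CPM in the lower doses and at 217, 301 and 315 CPM in vehicle. The difference was 0.42 on the log2 scale (SE 0.12, edgeR adjusted p = 0.038), with a small overlap of the sets. Of the last 300 bases of Ndufa12, 22.1% of 100-base stretches are shared with a pseudogene.

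In complex II the membrane anchor Sdhc was at 36.0, 39.4 and 28.2 CPM at 3 µM and from 37.6 to 61.7 CPM in the lower doses, a log2 difference of -0.52 (SE 0.16, edgeR adjusted p = 0.046). The catalytic subunits Sdha and Sdhb differed by -0.10 and 0.04, with edgeR adjusted p of 0.64 and 0.85. In complex III the Rieske iron-sulfur protein Uqcrfs1 was at 45.5, 46.8 and 36.4 CPM beside 46.1 to 74.1 in the lower doses (-0.41, SE 0.13, edgeR adjusted p = 0.063). In both genes the 3 µM libraries reached into the range of the lower doses.

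In complex IV, Cox6c was called beside Cox8a. It was at 698, 863 and 782 CPM at 3 µM and from 918 to 1045 in the lower doses, with no overlap (-0.29, SE 0.086, edgeR adjusted p = 0.042). Cox7c was at 89.1, 179 and 98.8 CPM at 3 µM and from 122 to 260 in the lower doses (-0.54, SE 0.19, edgeR adjusted p = 0.076), and 55.7% of its end stretches are shared with 2 pseudogenes. The summed level of the complex IV members was 3390 to 3699 CPM at 3 µM, 3728 to 4265 in the lower doses and 3366 to 3925 in vehicle. That sum holds the called genes Cox6c, Cox8a and Cox7c, at 842, 446 and 155 CPM on average over the libraries. The median log2 difference of complex IV, given above, was far smaller than that of these genes. In the other complexes the 3 µM libraries overlapped those of the lower doses at 24 h, with complex I at 6790 to 7151 against 7095 to 7938 CPM and complex V at 5091 to 5587 against 5516 to 6232 CPM.

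In complex V 4 members were called: the c-subunit gene Atp5g3 (-0.37, SE 0.11), the central stalk subunit Atp5c1 (-0.31, SE 0.099) and the peripheral stalk subunits Atp5h (-0.34, SE 0.12) and Atp5j (-0.50, SE 0.17), with edgeR adjusted p of 0.041, 0.058, 0.087 and 0.073. The other c-subunit genes Atp5g1 and Atp5g2 and the stalk subunit Atp5o were not called. Atp5g3 was at 704, 825 and 683 CPM at 3 µM and from 809 to 1130 in the lower doses, the highest of the 4, and the sets overlapped. The catalytic head subunits Atp5a1 (0.08) and Atp5b (-0.19) were not called, with edgeR adjusted p of 0.67 and 0.30.

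**Figure D4:**
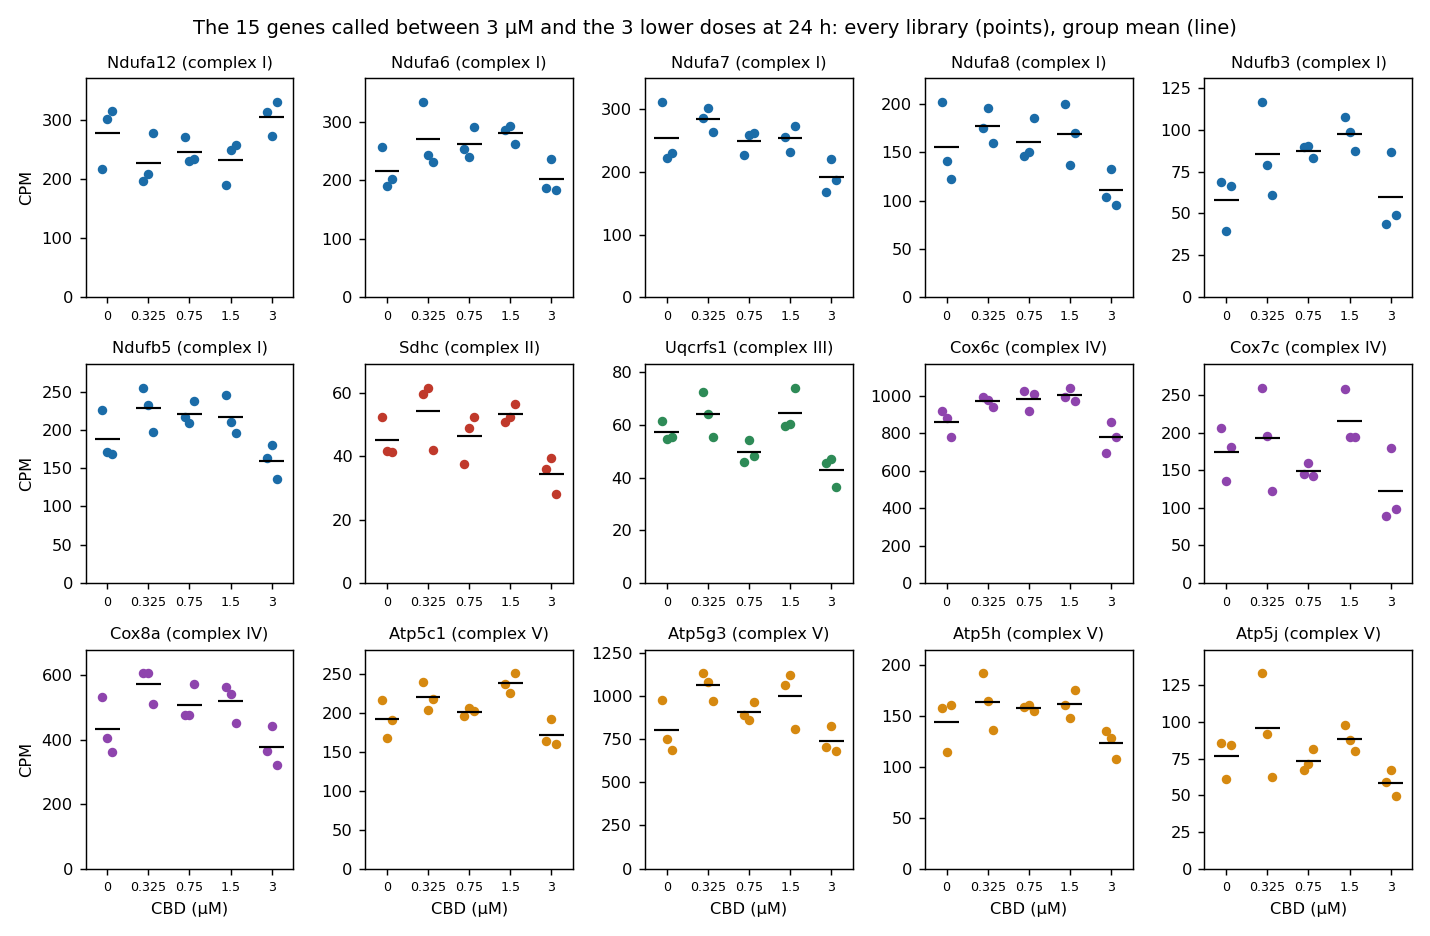
Level in CPM of the 15 members called between 3 µM and the 3 lower doses at 24 h, in every library (points) with the group mean (line), by CBD dose in µM; 0 is vehicle and every axis starts at 0. For 14 genes the mean at 3 µM lies under the mean of each lower dose, and for Ndufa12 it lies above.

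Among all 74 members, 10 had every 3 µM library below every lower-dose library, beside 3.27% of all genes, among them Ndufa8, Ndufa7, Ndufb5, Ndufb11, Uqcrb, Cox6c, Cox8a, Atp5c1 and Atp5h. None had every 3 µM library above, beside 1.45% of genes.

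The plot of the called members shows where vehicle lay. Against vehicle at 24 h, the log2 difference of 3 µM was -0.15 for Cox8a, -0.44 for Ndufa8 and -0.09 for Cox6c. The mean of the lower doses stood at 0.30, 0.12 and 0.20 from vehicle. None of these differences from vehicle was called. Both comparisons share libraries with that between the doses, and no member of 74 was called for the mean of the lower doses against vehicle (13 at unadjusted p below 0.05 in edgeR, 0 by DESeq2, 0.248% of all genes called).

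The share of reads outside genes moved with these calls. At 24 h it was 20.8% to 21.7% at 3 µM and 20.9% to 22.2% in vehicle, and 18.7% to 20.4% in the lower doses, so that the share and the dose cannot be told apart there. With the share as a covariate the edgeR test called 0 members, whereas the log2 differences of the 15 kept their sign. They were larger for Cox7c (-0.85) and Ndufb3 (-0.84) and little changed for Atp5c1 (-0.30) and Atp5h (-0.36). They were smaller for Ndufa8 (-0.40), Cox8a (-0.21), Sdhc (-0.22) and Ndufa6 (-0.16). Over the 6 other settings of the whole fit, the smallest difference was -0.17 for Atp5g3, -0.28 for Uqcrfs1 and -0.29 for Ndufb5. The summed level of the 14 lower members was 2961, 3641 and 2916 CPM at 3 µM, 3909 to 4853 in the lower doses, and 4272, 3375 and 3333 in vehicle. At 6 h, where 3 µM had 19.4% to 19.5% of reads outside genes, their sum was 3714 to 3866 CPM at 3 µM and 3081 to 4221 in the lower doses.

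Single libraries of 1 group differed as much. In vehicle at 6 h the sum of these 14 genes was 2922 and 3019 CPM in replicates 1 and 2 and 4360 CPM in replicate 3, whose share outside genes was 17.9% beside 21.4% and 20.8%. Cox7c alone was at 102, 99.8 and 289 CPM in the same libraries. The SD of log2 levels within groups, pooled over the 10 groups of both times, had a median of 0.24 over the 14 genes. It was 0.18 over all members and 0.31 over all genes tested at 24 h. Of the lists of cell type markers, 1 gene was called at 3 µM against the lower doses, Cx3cr1 of 3 microglia markers (0.95, edgeR adjusted p = 0.066), whose list sum was 217 to 276 CPM at 3 µM and 263 to 340 in the lower doses. Of these 3 microglia markers Tmem119 averaged 242 CPM, Cx3cr1 14.5 CPM and Aif1 0.03 CPM, so that the sum is mostly Tmem119. The part of these measures in the result was not tested. Without replicate 1 or replicate 3 of 3 µM, the count of called members was 0, without replicate 2 it was 19, and without any of the other 12 libraries it was 10 to 17. These counts, and that of 0 with the covariate, stand without the share of all genes called in the same fits. They are therefore no result about the members. Cox7c ran from -0.93 without replicate 2 of 3 µM to -0.37 without replicate 1, and Ndufb3 from -0.92 to -0.38 without the same libraries. Their calls held in 8 and 7 of the 15 fits with 1 library left out, those of Atp5h, Atp5j and Uqcrfs1 in 6, 10 and 11, and those of the other 10 members in 13. DESeq2 did not call Cox7c.

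What the 14 lower members share beyond the call was small. The median GC content of the last 300 bases was 43.9%, beside 47.8% in the other 60 members tested, the median transcript length was 680 beside 739 bases, and the median level 168 beside 177 CPM. Shared end sequence was found in 3 of 14 and 10 of 60.

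More members were called with time than with dose, but at about the share seen over all genes and in a fit of more libraries. Vehicle at 24 h against vehicle at 6 h, in the fit of all 30 libraries, called 20 of 74 members, 19 higher and 1 lower, whereas over all genes 26.7% were called, 12.5% higher and 14.2% lower. The 19 were 12 of complex I, 2 of III, 2 of IV and 3 of V. The median over the members was 0.10 beside -0.03 over all genes, and the complex medians were 0.13 in I, -0.03 in II, 0.06 in III, 0.04 in IV and 0.14 in V.

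Ndufa11, a membrane-arm accessory subunit of complex I (chr17:56717767-56722141, forward strand), was at 220, 227 and 143 CPM in vehicle at 6 h and at 298, 298 and 308 CPM at 24 h. The groups did not overlap, and the log2 difference was 0.58 (SE 0.13, edgeR adjusted p = 0.0017). Ndufv3, a small subunit of the NADH-oxidizing module, went from 128, 133 and 114 CPM to 180, 194 and 210 CPM (0.60, SE 0.16, edgeR adjusted p = 0.0063).

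Uqcr11, a small subunit of complex III, went from 197, 195 and 165 CPM to 299, 266 and 259 CPM (0.52, SE 0.12, edgeR adjusted p = 0.0017). In complex V, Atp5o was higher by 0.46 and Atp5l by 0.68 on the log2 scale, with edgeR adjusted p of 0.0038 and 0.027. Atp5g3 was the 1 member lower: it was at 847, 921 and 1413 CPM at 6 h and at 976, 748 and 686 CPM at 24 h (-0.45, SE 0.16, edgeR adjusted p = 0.040), with overlap of the groups. It fell to -0.17 (adjusted p = 0.50) without vehicle replicate 3 of 6 h, and the call was also lost without vehicle replicate 2 or 3 of 24 h and with the covariate for the share outside genes (-0.19). The call of Atp5l was lost with that covariate (0.56, edgeR adjusted p = 0.11). Every vehicle library of 24 h lay above every one of 6 h for 21 members, beside 17.7% of all genes, and below for 1 (Ndufa10), beside 14.1%.

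Marker genes of other cells moved with time in vehicle as well, and the share of reads outside genes was 17.9% to 21.4% at 6 h and 20.9% to 22.2% at 24 h. Of 6 mesenchymal markers 4 were higher and Vim was lower, with a summed level of 6715 to 7767 CPM at 6 h and 6951 to 7943 at 24 h. Of 10 neuronal markers 4 were tested and Map2 was higher (1.09), with a sum of 108 to 120 CPM at 6 h and 135 to 149 at 24 h, and Slc1a3, 1 of 4 astrocyte markers, was higher (1.72), with a sum of 2.18 to 6.00 and 8.71 to 10.8 CPM. Of 3 microglia markers Tmem119 was higher and Cx3cr1 lower, with a sum of 143 to 242 and 276 to 327 CPM, and the 3 oligodendrocyte markers were too low to test. Of the neuronal and astrocyte lists, Snap25, Syp, Rbfox3, Npy, Agrp, Pomc, Gfap and Aqp4 averaged below 1 CPM. Tubb3 averaged 49.0, Eno2 37.2, Map2 23.3, Stmn2 15.3, S100b 4.25 and Slc1a3 3.49 CPM. The part of these markers and of the share in the result was not tested.

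The same difference between times was taken over the CBD libraries. The mean of the 4 doses at 24 h against that at 6 h called 41 of 74 members, beside 53.6% of all genes, and 7 of the 74 were called lower, beside 27.6% of all genes. Of the 20 members called in vehicle, 19 had the same sign in the CBD libraries and 18 were called there with that sign. Of the 3411 genes called in vehicle over all genes, 97.0% had the same sign and 86.2% were called with that sign. The comparisons share no library. Ndufv3 was higher by 0.66, Ndufa5 by 0.63, Ndufb3 by 0.60, Ndufb7 by 0.53 and Ndufa11 by 0.38 on the log2 scale, with edgeR adjusted p of at most 0.00025. Uqcrc1 was the exception in sign, at 0.49 in vehicle and -0.16 in the CBD libraries, and the difference between them is the -0.65 above.

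**Figure D5:**
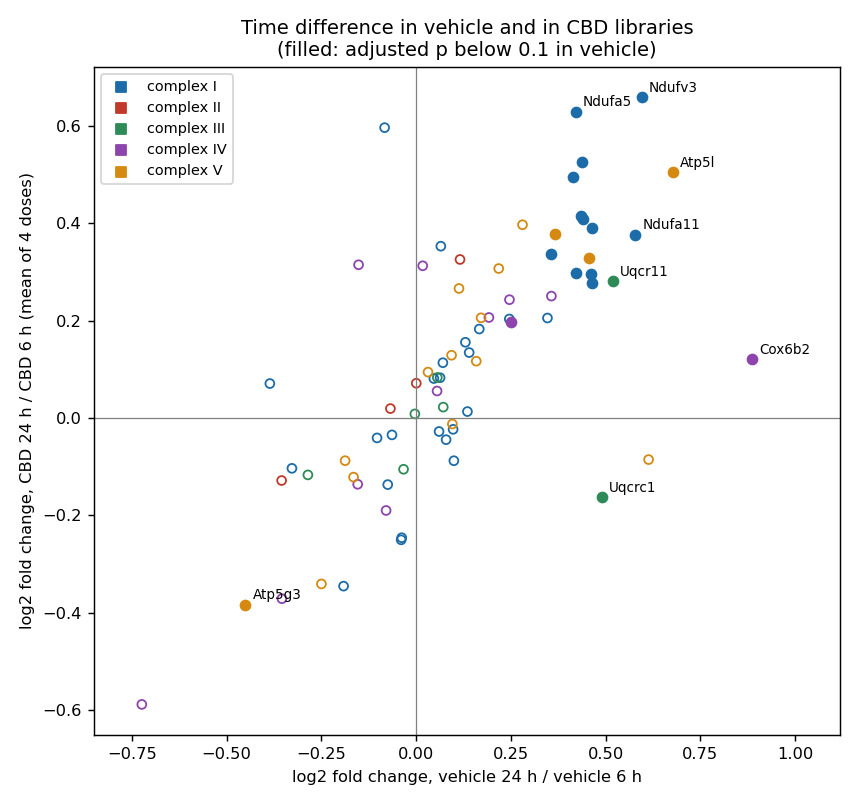
Log2 fold change of 24 h against 6 h in the vehicle libraries (x axis) and in the CBD libraries, mean of 4 doses (y axis), 1 point per member tested, coloured by complex; filled points have an adjusted p below 0.1 in vehicle. Of the 20 filled points 19 lie on the same side of 0 on both axes, and Uqcrc1 at 0.49 and -0.16 does not.

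The plot of both time differences also shows the members that fell in the CBD libraries. Cox5b, a nuclear subunit of complex IV, had a log2 difference of -0.37, Ndufv2 of complex I of -0.35 and Ndufc2 of -0.25. The c-subunit genes Atp5g3 and Atp5g1 were at -0.38 and -0.34, Ndufa4 at -0.25 and Cox6b1 at -0.14. The edgeR adjusted p was 0.094 for Cox6b1 and at most 0.051 for the rest. The call of Cox6b1 was lost in all 6 other settings and in 25 of 30 fits with 1 library left out (adjusted p up to 0.24), and that of Ndufa4 without replicate 3 of 0.75 µM or replicate 1 of 0.325 µM at 6 h or replicate 3 of 3 µM at 24 h. In vehicle the same genes were at -0.35, -0.19, -0.04, -0.45, -0.25, -0.04 and -0.15 in this order. The interaction of time and CBD called no member (2 at unadjusted p below 0.05 in edgeR, 0 by DESeq2), beside 0.235% of all genes.

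The other genes of the pathway were taken from lists of known members. Of the 13 mitochondrially encoded subunits 8 could be tested, since mt-Co2, mt-Co3, mt-Atp8 and mt-Nd4l had 0 reads and mt-Atp6 had 4. Between 3 µM and the lower doses at 24 h, 0 of the 8 were called (3 at unadjusted p below 0.05), beside 10.5% of all genes. Their median was 0.14 on the log2 scale, with 6 higher and 2 lower. Against vehicle at 24 h all 8 were lower for the mean of the 4 doses, with a median of -0.21 beside -0.01 over all genes. The counts higher and lower stand without a share of all genes. In that comparison 1 was called, beside 0.107% of all genes: mt-Nd3, a low gene at 4.01 CPM (-1.96, SE 0.40, edgeR adjusted p = 0.044). With time in vehicle, mt-Nd4 was the 1 called, higher by 0.58, where 26.7% of all genes were called, 12.5% higher.

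Of the assembly factors, which build the complexes without staying in them, 0 of 37 were called by edgeR between 3 µM and the lower doses (3 at unadjusted p below 0.05), and 3 were higher and 3 lower of 40 with time in vehicle. For these and the next counts, the shares of all genes called were 10.5% for 3 µM (6.36% higher) and 26.7% for time in vehicle (12.5% higher). Among 12 regulators of mitochondrial genes, Tfb2m, a mitochondrial transcription factor at 5.01 CPM, was lower at 3 µM (-1.40, SE 0.47, edgeR adjusted p = 0.071), whereas Nrf1, Gabpa, Yy1, Tfam and Ppargc1a were not called. The 13 enzyme genes of the TCA cycle had 2 called higher at 3 µM, Mdh2 by 0.40 and Idh3a by 0.42, and with time in vehicle 1 was higher and 5 lower. Of the 6 genes tested from the list of chain subunits and carriers outside the rule, Ndufb1-ps was lower at 3 µM (-0.44). The annotation used here gives Ndufb1-ps as a non-coding transcript. Cyc1, the cytochrome c1 of complex III, was lower with time in vehicle (-0.46).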

How the data were processed

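Counts of 30 libraries were used. Per the study's methods and the labels, the authors trimmed the reads with Flexbar, mapped them to GRCm39 with STAR 2.7.5c and counted them per Ensembl gene with HTSeq 1.99.2; the deposited values are raw counts with no normalization. Summary lines of the tables were kept out of the gene counts and gave the share of reads outside genes (17.7% to 22.2%). GENCODE M21, made for the older build GRCm38, supplied symbols (for 51948 of 56941 genes), biotypes and gene positions.

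The members, lists and tests were chosen with earlier results of these data known. Counts were fitted in R 4.3.3 with edgeR 4.0.16 (filterByExpr on groups, TMM, quasi-likelihood F-test, group means with no block), on 15 libraries per time (12012 genes at 6 h, 12118 at 24 h) or on all 30 for comparisons across time (12790 genes). The Benjamini-Hochberg adjustment ran over every gene of a fit, with a threshold of 0.1. Levels are CPM after TMM scaling over 30 libraries. DESeq2 1.42.0, RLE scaling, other count filters, leaving out the mitochondrial genome, a covariate for the share outside genes, fits of only the groups compared and leaving out each library were the alternatives. The comparison of the lower doses with vehicle and that of the CBD libraries between times were added after seeing the data. Named members were those called (the 20 with the smallest p), those with the smallest p in each complex and time, fixed core subunits and isoform pairs, the highest and lowest of each complex, and those that failed the filter; further members are named where a count or range needed it, chosen after their values were seen. Members not tested at 24 h were Ndufa4l2, Ndufs5, Uqcrc2, Atp5s and the 4 with no read, and at 6 h Cox7a1 as well. The values of 1 member that the rule names are not reported here. The edgeR fit was tested on simulated counts, for dose comparisons at 24 h only. For 3 µM against vehicle it called 4% of genes changed by 0.379 on the log2 scale, 20% at 0.5 and 56% at 1. For the mean of the 4 doses against vehicle the shares were 14%, 36% and 76%. Most small differences from vehicle would thus not be called. Intervals and floors cover counting error only.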

Additional observations from a re-analysis of the deposited data

How the results depend on the processing

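Under other settings of the whole fit, 108 counts of called members stayed within 1.5 times the reported count and 14 did not. Counts under other settings or with 1 library left out stand here without the share of all genes called in the same fit. With no filter on low counts, 1 member was called for the difference between times in the response to CBD, for 0.75 µM, for 1.5 µM and for the mean of 4 doses at 24 h, 2 for the lower doses against vehicle at 24 h and 12 among the doses at 24 h (all reported as 0). Among the doses at 24 h DESeq2 called 9 and a minimum of 10 counts in every library 1, and with that minimum 1 was called for the lower doses against vehicle. With a covariate for the share outside genes, 3 µM against the lower doses at 24 h went from 15 to 0. The log2 differences kept their sign, some little changed (-0.30 for Atp5c1), some larger (-0.85 for Cox7c) and some smaller (-0.21 for Cox8a). With the same covariate 0.325 µM at 6 h went from 1 to 5 and the lower doses against vehicle at 6 h from 1 to 2. Fitting only the groups compared gave 0 for 0.325 µM at 6 h and 1 for 0.75 µM at 24 h. The cause was not tested, apart from the fewer libraries or more genes that a setting itself brings.

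Leaving out 1 library gave 0 to 19 members for 3 µM against the lower doses, 0 to 15 among the doses, 0 to 3 for 3 µM against vehicle and 0 to 2 for the lower doses against vehicle at 24 h. It gave 0 to 3 at 6 h for 0.325 µM, the lower doses and the mean of 4 doses, 0 to 1 for the difference between times in the response, 15 to 23 for time in vehicle and 38 to 45 for time in CBD libraries. The 3 members for 3 µM against vehicle came without replicate 2 of 3 µM, and the 15 among the doses likewise.

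Sdhd, at -0.89 for the mean of 4 doses at 24 h, turned to 1.08 with the covariate and ran from -1.43 (without vehicle replicate 1) to 0.12 (without vehicle replicate 3) when 1 library was left out, and Uqcrb turned from 0.15 to -0.064 with the covariate. No paired analysis was possible because the labels give the libraries no replicate numbers, and the numbers used here only follow the order of the libraries. Depth limits the members below 10 CPM, such as Cox5a with 328 and Ndufs5 with 64 reads over 30 libraries.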
